A study of Sus scrofa with 15 samples.

Results

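Chondrocytes of adult pig knee cartilage that carry BMPR1B on their surface were compared by whether they also carried ITGA4. The comparison rested on 6 of the 15 libraries of the series, 3 of ITGA4+BMPR1B+ cells and 3 of ITGA4-BMPR1B+ cells, chosen by their sort labels. Each of pigs 2, 5 and 6 gave 1 library to either population, so every difference could be read within an animal. The same 3 pigs gave ITGA4+BMPR1B- and ITGA4-BMPR1B- chondrocytes, 6 further libraries that served for comparison, and 3 libraries of synovial CD146+ cells were not used. All of these chondrocytes were untreated and were sorted after enzymatic digestion of the tissue. The labels give neither breed nor sex. With the pig as a block, the p values of the gene tests measure how far differences between populations varied from pig to pig. That scatter was pooled over all 12 chondrocyte libraries, and it comes from these 3 animals only.

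ITGA4 encodes an integrin alpha subunit that pairs with a beta subunit to bind fibronectin and the adhesion protein VCAM1. BMPR1B encodes a receptor for bone morphogenetic proteins, secreted signals that direct cartilage and bone formation. Adult articular chondrocytes divide rarely and maintain a matrix of type II collagen and aggrecan, with lubricin-producing cells at the surface and hypertrophic, mineralising cells next to the bone. The question was whether the ITGA4+ cells among BMPR1B+ chondrocytes differed in the genes of these programmes.

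The deposited values were a signal with the same total of 629194 or 629195 in every library, so that a gene's value depended on what else the library held. Structural RNA, such as ribosomal and small nucleolar RNA, made up 62.0%, 59.1% and 64.6% of the signal in the ITGA4+BMPR1B+ libraries of pigs 2, 5 and 6, against 95.2%, 69.5% and 68.7% in the ITGA4-BMPR1B+ libraries. All other RNA encoded in the nucleus, here called messenger RNA, made up 4.03%, 22.1% and 16.3% in ITGA4+BMPR1B+ cells and 2.44%, 19.2% and 14.8% in ITGA4-BMPR1B+ cells. Gene levels below are therefore scaled values, brought to a common level over the messenger RNA, and the values of a gene are always given for pigs 2, 5 and 6 in that order. Between 14361 and 16426 messenger rows were above 0 in the 6 libraries. The number of reads behind a single value could not be recovered from the signal, and reads of near-identical gene copies or of overlapping genes cannot be told apart in this table.

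The sorted proteins were scarcely visible in the RNA. ITGA4 was at 1.02, 1.399 and 0.683 in ITGA4+BMPR1B+ cells, against 0.714, 0.876 and 0.439 in ITGA4-BMPR1B+ cells. It was higher in ITGA4+BMPR1B+ cells in 3 of 3 pigs, but at a level below the minimum for testing. BMPR1B was at 0.150, 0.0619 and 0.0159 in ITGA4+BMPR1B+ cells, against 0.0599, a listed 0 and 0.00662 in ITGA4-BMPR1B+ cells, and was likewise too low to test. The gates were thus not checked by these transcripts. The chondrocyte genes COL2A1, ACAN and SOX9 were abundant in all 6 libraries, as described below.

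Across the 9242 genes tested, none passed an adjusted p of 0.05 in limma with the pig as a block, a percentage called of 0. At an unadjusted p under 0.05, 311 genes were higher (3.37%) and 367 lower (3.97%) in ITGA4+BMPR1B+ cells, 678 in all. For a difference between the ITGA4 comparison in BMPR1B+ cells and that in BMPR1B- cells, limma called 0 genes (0%), and 334 (3.61%) had an unadjusted p under 0.05. The smallest adjusted p of limma was 0.280. In other scalings and filters, and without single libraries, the number called was 0 to 2. The differences given below are therefore measured values and directions within pigs, and none of them is a call.

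Of all genes tested, 1145 were higher in ITGA4+BMPR1B+ cells in 3 of 3 pigs (12.4%) and 1431 were lower in 3 of 3 pigs (15.5%). Both groups failed to overlap, with every ITGA4+BMPR1B+ library above every ITGA4-BMPR1B+ library, for 299 genes (3.24%), and in the other direction for 321 genes (3.47%). The median log2 difference over all genes tested was -0.03 on the messenger scale, and 0.27 when the deposited signal was used as it stood. Of the genes at an unadjusted p under 0.05, 45.9% were higher on the messenger scale, 98.5% on the deposited scale, 82.9% when scaled to the total of messenger rows and 35.4% with the upper quartile.

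Most genes of mitosis were at higher levels in ITGA4+BMPR1B+ cells. Of 46 members with a row in the table, 32 were higher in 3 of 3 pigs, and RACGAP1, a regulator of cytokinesis, was the 1 member lower in 3 of 3. Over all 18633 messenger rows above 0 in any of the 6 libraries, 2053 were higher in 3 of 3 pigs and 2087 lower. Only 22 members were high enough to test, 8 of them through their level in the ITGA4+BMPR1B+ libraries, so that their share cannot stand for the whole list. Of the 22, 12 had an unadjusted p under 0.05, all 12 of them higher, against 3.37% of all genes tested. None passed the adjusted threshold in limma. TOP2A and UBE2C were chosen for description, as was the list, with results of these libraries known, and their direction is not independent evidence.

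UBE2C, the ubiquitin-conjugating enzyme that serves the anaphase-promoting complex, was at 12.98, 45.2 and 66.4 in ITGA4+BMPR1B+ cells, against 3.17, 6.14 and 29.3 in ITGA4-BMPR1B+ cells. It was higher in every pig, while the 2 populations overlapped because pig 6 was high in both. The log2 difference was 1.86 (SE 0.43), with an unadjusted p of 0.00217 and an adjusted p of 0.490 in limma. TOP2A, the topoisomerase that untangles chromosomes, was at 7.60, 50.7 and 46.3 in ITGA4+BMPR1B+ cells, against 2.25, 8.33 and 18.7 in ITGA4-BMPR1B+ cells. Its log2 difference was 1.71 (SE 0.58, unadjusted p = 0.0180, limma adjusted p = 0.618), and within the pigs it was 1.41, 2.47 and 1.26. Both genes thus differed at least as much in pig 2, with its low messenger share, as in pig 6.

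CKS2, a subunit that binds cyclin-dependent kinases, separated the populations completely. It was at 26.2, 64.0 and 31.5 in ITGA4+BMPR1B+ cells and 12.9, 18.1 and 17.5 in ITGA4-BMPR1B+ cells (log2 difference 1.18, SE 0.26, limma adjusted p = 0.418). UBE2T, a ubiquitin-conjugating enzyme of DNA crosslink repair that was listed with mitosis, was at 17.4, 31.8 and 26.5 in ITGA4+BMPR1B+ cells and 13.3, 15.7 and 15.7 in ITGA4-BMPR1B+ cells. These groups also did not overlap. CKAP2, a spindle-associated protein, was at 5.16, 9.49 and 14.4 in ITGA4+BMPR1B+ cells and 0.948, 2.20 and 5.48 in ITGA4-BMPR1B+ cells, a log2 difference of 1.54 (SE 0.37). CKAP2 was high enough to test only with the ITGA4+BMPR1B+ libraries counted. Among the 22 tested members, 5 had groups that did not overlap, all of them higher in ITGA4+BMPR1B+ cells, against 3.24% of all genes tested. With 8 of the 22 tested through their level in those libraries, this count cannot stand for the whole list either. Members too low to test included CDK1, the kinase that drives entry into mitosis, at 0.977, 10.4 and 5.44 in ITGA4+BMPR1B+ cells and 0.718, 0.692 and 1.65 in ITGA4-BMPR1B+ cells.

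**Figure D1:**
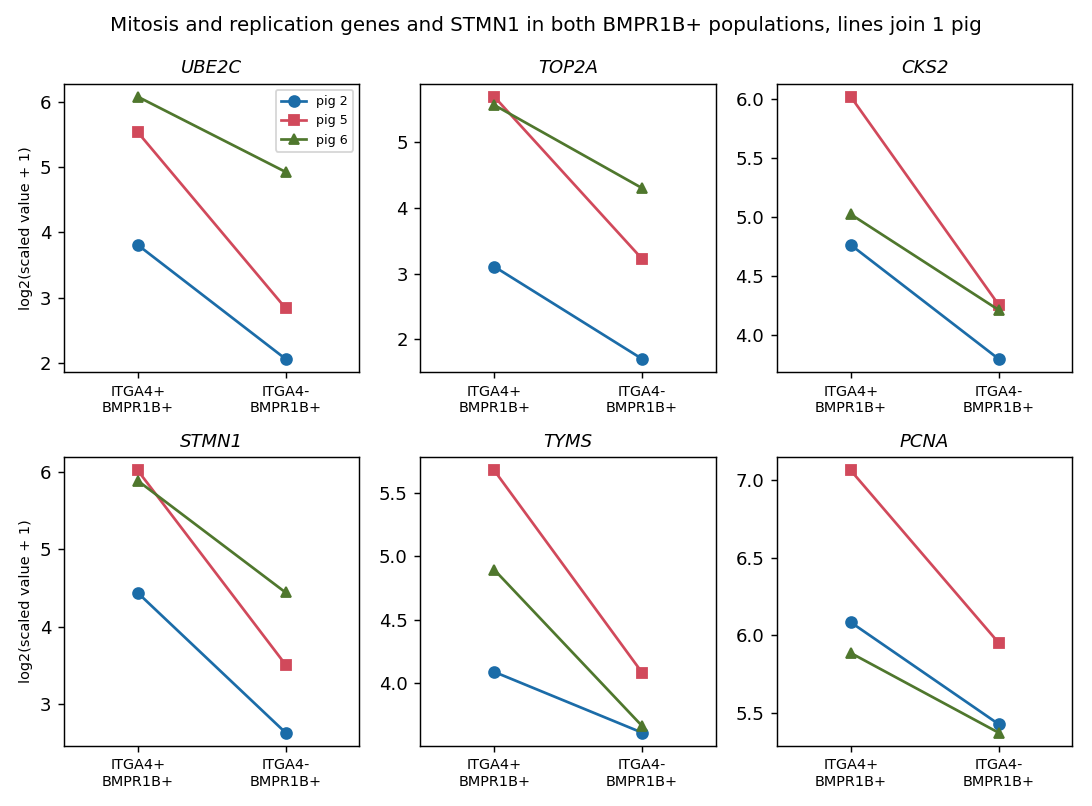
Scaled values of 5 mitosis and replication genes and of STMN1 in the 6 BMPR1B+ libraries, as log2(scaled value + 1) on the vertical axis, with ITGA4+BMPR1B+ cells at the left and ITGA4-BMPR1B+ cells at the right of each panel and a line joining the libraries of 1 pig. Every line slopes down to the right: all 6 genes were higher in ITGA4+BMPR1B+ cells in 3 of 3 pigs, and the lines of pig 6 for UBE2C end at 29.3, above the 12.98 of pig 2 in ITGA4+BMPR1B+ cells.

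STMN1, CDKN2C and ZNF367 were among the 10 higher genes with the smallest p. STMN1, which destabilises microtubules, was at 20.7, 63.8 and 58.1 in ITGA4+BMPR1B+ cells and 5.20, 10.4 and 20.7 in ITGA4-BMPR1B+ cells (log2 difference 1.92, SE 0.40, limma adjusted p = 0.412). CDKN2C, an inhibitor of the kinases CDK4 and CDK6, was at 10.8, 45.9 and 59.4 in ITGA4+BMPR1B+ cells and 6.22, 14.6 and 29.3 in ITGA4-BMPR1B+ cells. It was higher in 3 of 3 pigs, and the populations overlapped. ZNF367, a zinc finger protein, was at 28.6, 72.4 and 24.5 in ITGA4+BMPR1B+ cells and 8.32, 11.8 and 11.1 in ITGA4-BMPR1B+ cells, with no overlap.

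Genes of DNA replication were higher less often than those of mitosis, a difference between lists that was not tested. Of 34 members with a row, 16 were higher in 3 of 3 pigs and 0 were lower in 3 of 3. Set beside this are 2053 higher and 2087 lower of the 18633 messenger rows above 0. Of the 15 tested, 4 of them through the ITGA4+BMPR1B+ libraries, 3 had an unadjusted p under 0.05, all higher, against 3.37% of all genes. As for mitosis, this share cannot stand for the whole list. TYMS, which makes thymidylate, was at 16.0, 50.2 and 28.7 in ITGA4+BMPR1B+ cells and 11.2, 15.9 and 11.6 in ITGA4-BMPR1B+ cells. The log2 difference of TYMS was 1.10 (SE 0.38, limma adjusted p = 0.618), without overlap. PCNA, the sliding clamp of the replication fork, was at 66.9, 133 and 58.1 in ITGA4+BMPR1B+ cells and 42.0, 60.9 and 40.4 in ITGA4-BMPR1B+ cells. The large ribonucleotide reductase subunit RRM1 was at 20.7, 25.4 and 17.4 in ITGA4+BMPR1B+ cells and 14.9, 13.6 and 13.7 in ITGA4-BMPR1B+ cells. The log2 difference was 0.54 (SE 0.21) for RRM1 and 0.65 (SE 0.29) for the helicase subunit MCM4, which was also higher in 3 of 3 pigs. MCM4 was high enough to test only with the ITGA4+BMPR1B+ libraries counted.

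Mitotic genes were also at higher levels in ITGA4+ than in ITGA4- cells among the BMPR1B- chondrocytes. The median scaled value over the 46 mitosis members was 2.61, 7.15 and 5.58 in ITGA4+BMPR1B+ cells and 1.15, 1.69 and 3.35 in ITGA4-BMPR1B+ cells. In the same pigs it was 1.59, 1.57 and 2.21 in ITGA4+BMPR1B- cells and 0.934, 0.757 and 1.27 in ITGA4-BMPR1B- cells. In each pig the ITGA4+BMPR1B+ library had the highest median of the 4 chondrocyte libraries. Of the 22 tested members, 0 had an unadjusted p under 0.05 for the difference between the ITGA4 comparison within BMPR1B+ cells and that within BMPR1B- cells. UBE2C had log2 differences of 1.86 within BMPR1B+ and 2.01 within BMPR1B- cells, a difference of -0.14 (SE 0.61). STMN1, not on that list, had 1.92 within BMPR1B+ and -0.14 within BMPR1B- cells, a difference of 2.06 (SE 0.57) with an unadjusted p of 0.00636 and a limma adjusted p of 0.99996.

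**Figure D2:**
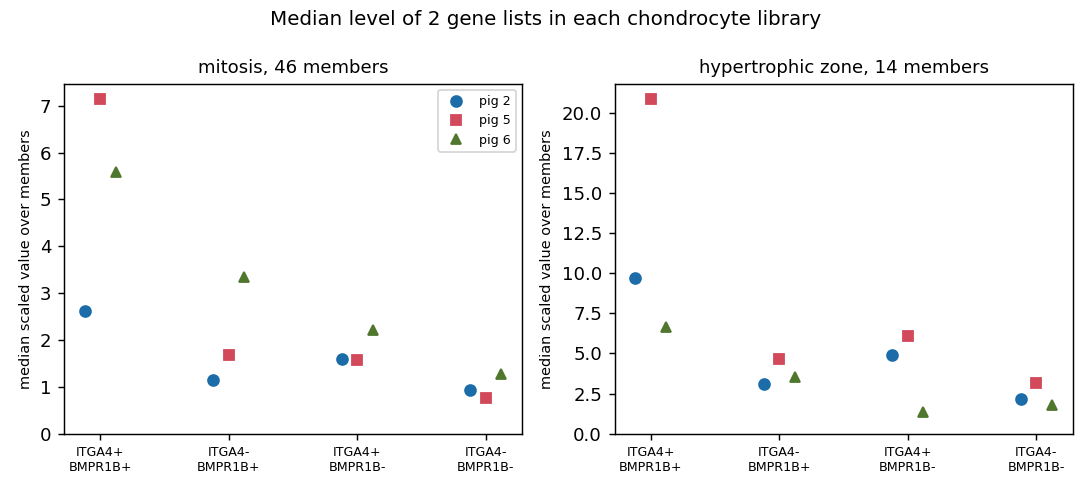
Median scaled value over the 46 mitosis genes (left) and the 14 hypertrophic zone genes (right) with a row in the table, on the vertical axes, in each of the 12 chondrocyte libraries, 1 point per pig. For mitosis, ITGA4+BMPR1B+ cells stand at 2.61, 7.15 and 5.58 in pigs 2, 5 and 6, above the other populations of the same pig, and for the hypertrophic genes at 9.69, 20.8 and 6.67.

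Genes of hypertrophic cartilage, the zone in which chondrocytes enlarge and the matrix mineralises, were mostly at higher levels too. Of 14 members with a row, 9 were higher in ITGA4+BMPR1B+ cells in 3 of 3 pigs, and VEGFA and DMP1 were lower in 3 of 3. Over the 18633 messenger rows above 0 these counts were 2053 and 2087. Of the 10 tested, 4 of them through the ITGA4+BMPR1B+ libraries, 6 had an unadjusted p under 0.05, all higher, against 3.37% of all genes. With those 4 admitted by their level in ITGA4+BMPR1B+ cells, this share cannot stand for the whole list. None passed the adjusted threshold in limma. COL10A1, the collagen of hypertrophic cartilage, was at 60.3, 64.8 and 18.7 in ITGA4+BMPR1B+ cells, against 3.81, 3.44 and 0.941 in ITGA4-BMPR1B+ cells. The groups did not overlap, and the difference was of like size in each pig (3.67, 3.89 and 3.34 on the log2 scale). The fitted log2 difference was 3.63 (SE 0.85, unadjusted p = 0.00236, limma adjusted p = 0.512), and the adjusted p was 0.0847 in a limma fit of the 6 libraries alone. The SE of 0.85 pools scatter over all 12 chondrocyte libraries. Among BMPR1B- chondrocytes the list was also higher in ITGA4+ cells, with a median log2 difference of 0.61, and COL10A1 by 2.04. For a difference between the 2 ITGA4 comparisons, 0 of the 10 tested members had an unadjusted p under 0.05 in limma.

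Other genes of mineralising matrix were higher beside it. IBSP, a sialoprotein of bone, was at 9.27, 32.1 and 7.23 in ITGA4+BMPR1B+ cells and 0.588, 5.52 and 3.00 in ITGA4-BMPR1B+ cells, without overlap (log2 difference 2.03, SE 0.62). SPP1, or osteopontin, a matrix protein that ITGA4 integrins can bind, was at 3252, 19200 and 5197 in ITGA4+BMPR1B+ cells and 1484, 5107 and 4383 in ITGA4-BMPR1B+ cells. It was highest in pig 5 of both populations, and pig 6 differed by 0.25 on the log2 scale against 1.91 in pig 5. MMP13, a collagenase of hypertrophic cartilage, was at 37.6, 52.4 and 20.5 in ITGA4+BMPR1B+ cells and 33.1, 13.6 and 5.58 in ITGA4-BMPR1B+ cells. IHH, the hedgehog ligand of prehypertrophic cells, was at 5.98, 15.5 and 3.03 in ITGA4+BMPR1B+ cells and 2.39, 2.57 and 1.72 in ITGA4-BMPR1B+ cells. IHH was high enough to test only with the ITGA4+BMPR1B+ libraries counted. RUNX2, a transcription factor of hypertrophy and bone, was at 241, 102 and 72.1 and at 91.1, 71.3 and 67.1 in the same order of populations.

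Osteoblast genes overlapped that list in RUNX2, IBSP and the untested ALPL, and did not move as one. Of 10 members with a row, 7 were higher in 3 of 3 pigs and SPARC was lower in 3 of 3. The counts over the 18633 messenger rows above 0 were 2053 higher and 2087 lower. Of the 7 tested, IBSP and BGLAP were high enough to test only with the ITGA4+BMPR1B+ libraries counted. DLX3, a homeobox factor of bone and teeth, was at 8.34, 8.73 and 18.5 in ITGA4+BMPR1B+ cells and 2.04, 3.95 and 4.72 in ITGA4-BMPR1B+ cells. Its log2 difference of 1.46 (SE 0.24) had an unadjusted p of 0.000274 and a limma adjusted p of 0.307. BGLAP, or osteocalcin, was at 16.6, 11.1 and 4.12 in ITGA4+BMPR1B+ cells and 2.44, 3.15 and a listed 0 in ITGA4-BMPR1B+ cells. Within BMPR1B- cells BGLAP had a log2 difference of -0.92, and the difference between both comparisons was 3.01 (SE 0.84, limma adjusted p = 0.99996). SPARC, a collagen-binding glycoprotein with 2 rows in the table, was at 2663, 3495 and 5027 in ITGA4+BMPR1B+ cells and 3436, 6814 and 7812 in ITGA4-BMPR1B+ cells.

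Genes of the cartilage matrix were lower in ITGA4+BMPR1B+ cells on the messenger scale. Of 25 members with a row, 13 were lower in 3 of 3 pigs and 0 were higher in 3 of 3. Over the 18633 messenger rows above 0, 2087 were lower and 2053 higher. Of the 22 tested, 6 had an unadjusted p under 0.05, all lower, against 3.97% of all genes tested. The median log2 difference of the 22 was -0.37, with -0.36, -0.49 and -0.38 in pigs 2, 5 and 6. On the deposited scale the median of the same list was 0.16, which was still -0.10 relative to the median of all genes tested there. The size of the matrix difference therefore depended on the scale, and its sign held only relative to the other genes.

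MATN1, a matrilin of the cartilage matrix, had the smallest p on this list. It was at 1.76, 60.5 and 43.8 in ITGA4+BMPR1B+ cells and 10.6, 251 and 88.4 in ITGA4-BMPR1B+ cells, with the libraries of pig 2 far below the others. The log2 difference was -1.70 (SE 0.29, unadjusted p = 0.000299, limma adjusted p = 0.307), and it was -2.07, -2.03 and -0.998 within the pigs. Without the ITGA4+BMPR1B+ library of pig 6 the log2 difference was -2.12 and the limma adjusted p was 0.0394. ACAN, the aggrecan core protein, was at 1848, 2258 and 2445 in ITGA4+BMPR1B+ cells and 2601, 3462 and 3431 in ITGA4-BMPR1B+ cells, without overlap. Its log2 difference was -0.53 (SE 0.19) on the messenger scale and 0.0059 on the deposited scale. CSPG4, a membrane proteoglycan, was at 809.6, 507 and 974 in ITGA4+BMPR1B+ cells and 1159, 1064 and 1466 in ITGA4-BMPR1B+ cells, also without overlap.

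COL2A1, the main collagen of cartilage, was at 15094, 36095 and 39612 in ITGA4+BMPR1B+ cells and 21712, 69820 and 61273 in ITGA4-BMPR1B+ cells. It was lower in 3 of 3 pigs, with a log2 difference of -0.70 (SE 0.34, unadjusted p = 0.0725), and the populations overlapped through pig 2. SOX9, the transcription factor that specifies chondrocytes, was at 2853, 1152 and 1451 in ITGA4+BMPR1B+ cells and 3742, 1596 and 1883 in ITGA4-BMPR1B+ cells, a log2 difference of -0.41 (SE 0.15) that was 0.13 on the deposited scale. The collagen-binding matrix protein COMP was at 4083, 6006 and 7330 in ITGA4+BMPR1B+ cells and 5175, 8268 and 7441 in ITGA4-BMPR1B+ cells, with a log2 difference of -0.27 (SE 0.27) that was 0.26 on the deposited scale. The matrix list had a median of -0.36 for ITGA4+ against ITGA4- cells among BMPR1B- chondrocytes too, and 0 of its 22 tested members had an unadjusted p under 0.05 for a difference between the 2 comparisons.

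**Figure D3:**
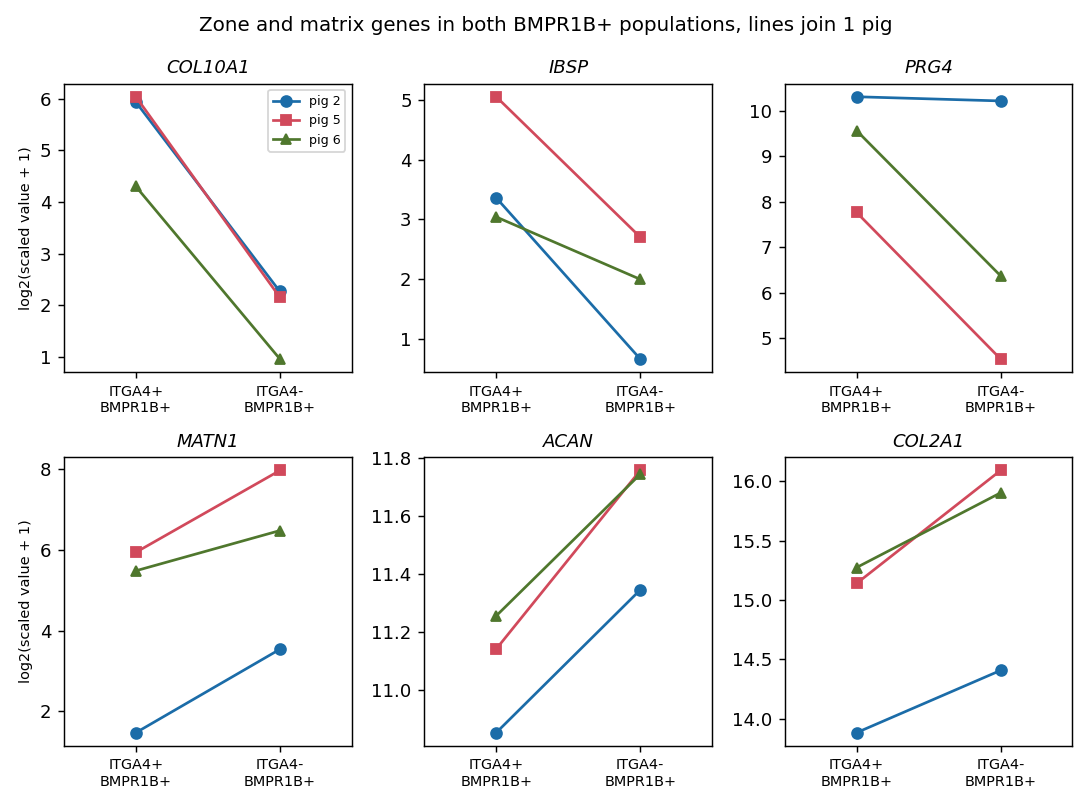
Scaled values of 3 genes that were higher (COL10A1, IBSP, PRG4) and 3 that were lower (MATN1, ACAN, COL2A1) in ITGA4+BMPR1B+ cells in 3 of 3 pigs on the messenger scale, as log2(scaled value + 1) on the vertical axis, with ITGA4+BMPR1B+ cells at the left of each panel and a line joining the libraries of 1 pig. The line of pig 2 for PRG4 is nearly flat (1264 against 1186), while those of pigs 5 and 6 drop steeply, and on the deposited scale ACAN had a log2 difference of 0.0059.

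Surface zone genes did not move together. PRG4, which encodes the lubricin of the joint surface, was at 1264, 217 and 755 in ITGA4+BMPR1B+ cells, against 1186, 22.4 and 81.9 in ITGA4-BMPR1B+ cells. The difference lay in pigs 5 and 6 (3.22 and 3.19 on the log2 scale) and was 0.09 in pig 2, whose ITGA4-BMPR1B+ library was higher than the ITGA4+BMPR1B+ library of pig 5 or 6. The fitted log2 difference was 2.17 (SE 0.82, unadjusted p = 0.0281, limma adjusted p = 0.632) and 3.20 without pig 2. PRG4 was higher still in both BMPR1B- populations, at 5256, 3396 and 3292 in ITGA4+BMPR1B- cells and 4430, 1863 and 2085 in ITGA4-BMPR1B- cells. Of the 16 listed surface genes, 5 were higher in 3 of 3 pigs and 2 lower. The counts over the 18633 messenger rows above 0 were 2053 and 2087. Among the 11 surface genes tested, PRG4 alone had an unadjusted p under 0.05.

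Signalling genes were mixed. In the BMP and TGF-beta list, 9 of 32 tested members were lower in 3 of 3 pigs and 2 were higher, against 15.5% and 12.4% of all genes tested. At an unadjusted p under 0.05, 3 of the 32 were lower and 1 was higher, against 3.97% and 3.37%. The ligand BMP4 was at 32.7, 17.4 and 20.3 in ITGA4+BMPR1B+ cells and 9.78, 8.44 and 10.7 in ITGA4-BMPR1B+ cells, without overlap (log2 difference 1.15, SE 0.21, limma adjusted p = 0.365). The ligand TGFB3 was at 9.75, 3.76 and 4.78 in ITGA4+BMPR1B+ cells and 24.9, 5.95 and 7.02 in ITGA4-BMPR1B+ cells. The receptor TGFBR2 was at 386, 454 and 535 in ITGA4+BMPR1B+ cells and 644, 653 and 567 in ITGA4-BMPR1B+ cells, a log2 difference of -0.45 (SE 0.15) that was 0.091 on the deposited scale. CHRD, or chordin, a secreted BMP antagonist, was at 4.12, 6.89 and 34.2 in ITGA4+BMPR1B+ cells and 12.3, 19.9 and 30.2 in ITGA4-BMPR1B+ cells, lower in pigs 2 and 5 only.

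In the smaller pathway lists single members stood out. WIF1, a secreted WNT inhibitor, was at 16.3, 5.99 and 17.0 in ITGA4+BMPR1B+ cells and 11.4, 1.04 and 2.06 in ITGA4-BMPR1B+ cells. It was the 1 of 7 tested WNT genes with an unadjusted p under 0.05, where 3.37% of all genes were higher and 3.97% lower. LIF, a cytokine that signals through STAT3, was at 2.36, a listed 0 and a listed 0 in ITGA4+BMPR1B+ cells and 14.7, 2.23 and 4.27 in ITGA4-BMPR1B+ cells. STAT3 itself was at 16.7, 15.6 and 24.6 in ITGA4+BMPR1B+ cells and 22.2, 19.9 and 23.5 in ITGA4-BMPR1B+ cells, with a log2 difference of -0.22 (SE 0.15) that was 0.17 on the deposited scale. GLI1, the transcription factor and target of hedgehog signalling, was at 139.9, 112 and 154 in ITGA4+BMPR1B+ cells and 189.6, 144 and 146 in ITGA4-BMPR1B+ cells. Its log2 difference was -0.24 (SE 0.16), and 0.26 on the deposited scale. For GLI1, STAT3 and RUNX2 the populations overlapped and the unadjusted p was 0.163, 0.176 and 0.120.

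Among integrins and the ligands of ITGA4, 2 of 18 tested members were higher and 1 lower at an unadjusted p under 0.05. The shares of all genes tested were 3.37% and 3.97%. Besides SPP1, ITGA5, the alpha subunit of the main fibronectin receptor, was higher at 39.4, 21.5 and 26.5 in ITGA4+BMPR1B+ cells, against 28.8, 4.86 and 17.8 in ITGA4-BMPR1B+ cells. ITGA10, the alpha subunit of a collagen II receptor, was at 147, 159 and 255 in ITGA4+BMPR1B+ cells and 171, 224 and 307 in ITGA4-BMPR1B+ cells. Its log2 difference of -0.33 (SE 0.14) was 0.17 on the deposited scale.

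Genes of inflammation and matrix breakdown included 3 of 17 tested members with an unadjusted p under 0.05, all higher, against 3.37% of all genes. Besides MMP13 these were PTGS2, the inducible cyclooxygenase, at 96.2, 37.9 and 17.9 in ITGA4+BMPR1B+ cells and 85.7, 13.6 and 8.37 in ITGA4-BMPR1B+ cells, and the aggrecanase ADAMTS5. ADAMTS5 was at 5.61, 5.31 and 4.19 in ITGA4+BMPR1B+ cells and 1.97, 2.54 and 2.65 in ITGA4-BMPR1B+ cells, without overlap. It was high enough to test only with the ITGA4+BMPR1B+ libraries counted. The related protease ADAMTS1 had 2 rows, and the one with the smaller p was at 19.4, 16.0 and 6.23 in ITGA4+BMPR1B+ cells and 2.38, 0.00116 and 2.06 in ITGA4-BMPR1B+ cells. Its log2 difference of 2.64 (SE 0.43) had a limma adjusted p of 0.307, and reads shared between the 2 rows make it uncertain. Of the immediate early genes, which are switched on within minutes of a stimulus or of tissue dissociation, 3 of 21 tested had an unadjusted p under 0.05, of which RGS2 and EGR3 were higher and KLF4 was lower, the last with a log2 difference of -0.34 that was 0.19 on the deposited scale. Of all genes tested 3.37% were higher and 3.97% lower at that p, and in a list of this size nothing is read from a count of 3. The list median was -0.25 on the log2 scale, with -0.02, -0.48 and 0.01 in pigs 2, 5 and 6.

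**Figure D4:**
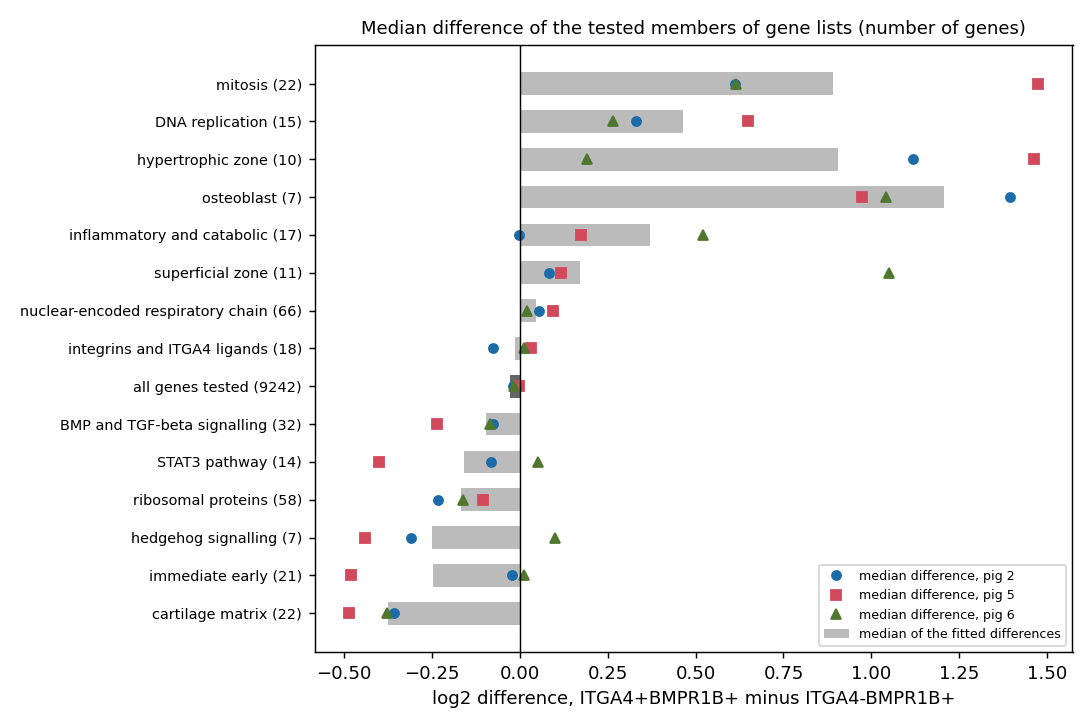
Median log2 difference, ITGA4+BMPR1B+ minus ITGA4-BMPR1B+ on the messenger scale, of the tested members of 14 gene lists and of all genes tested (bars), with the median within each pig as points and the number of genes tested in brackets. The mitosis bar stands at 0.89 with pigs 2, 5 and 6 at 0.61, 1.47 and 0.61, the cartilage matrix bar at -0.37, and all genes at -0.03. The medians are of members that passed a filter on low values, and on the deposited scale the cartilage matrix median was 0.16.

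Ribosomal protein genes were slightly lower in ITGA4+BMPR1B+ cells on the messenger scale. Of 58 tested, 26 were lower in ITGA4+BMPR1B+ cells in 3 of 3 pigs and 0 were higher, against the background of 15.5% and 12.4%. The median log2 difference was -0.17, and relative to all genes it was -0.14 on the messenger scale and 0.10 on the deposited scale, so the direction changed with the scale. RPL39 was at 311, 352 and 187 in ITGA4+BMPR1B+ cells and 506, 478 and 243 in ITGA4-BMPR1B+ cells, a log2 difference of -0.50 that was 0.033 on the deposited scale.

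Nuclear genes of the respiratory chain centred on the background, with a median of 0.05 over 66 tested. Of these, 5 were higher and 1 lower at an unadjusted p under 0.05, against 3.37% and 3.97% of all genes tested. USMG5, a small subunit of ATP synthase that was not among the 66, was at 389, 534 and 344 in ITGA4+BMPR1B+ cells and 193, 289 and 219.8 in ITGA4-BMPR1B+ cells. Its groups did not overlap (log2 difference 0.85, SE 0.17, limma adjusted p = 0.412). ATP5L, of the same complex, was higher by 0.47 (SE 0.16) on the log2 scale, and NDUFB1, of complex I, by 0.85 (SE 0.31). NDUFA13, another subunit of complex I, was at 6.56, 10.98 and 9.15 in ITGA4+BMPR1B+ cells and 13.2, 15.9 and 10.9 in ITGA4-BMPR1B+ cells, a log2 difference of -0.55 (SE 0.16) that was 0.0056 on the deposited scale.

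Mitochondrially encoded RNA took a larger share of the signal in ITGA4+BMPR1B+ cells in every pig. The 37 rows made up 34.0%, 18.8% and 19.1% of it in ITGA4+BMPR1B+ cells, against 2.41%, 11.3% and 16.5% in ITGA4-BMPR1B+ cells. The means were 24.0% ± 8.67 and 10.04% ± 7.11 (SD, n = 3 each), a difference of 13.9 points that was 5.11 points without pig 2. An exact two-sided sign permutation over the 3 pigs gave p = 0.25, the smallest it allows. Set against the messenger scale in place of the common total, the 13 named mitochondrial genes amounted to 3.23, 0.402 and 0.516 times the mean messenger total in ITGA4+BMPR1B+ cells and 0.368, 0.409 and 0.580 times in ITGA4-BMPR1B+ cells. All 37 rows amounted to 8.79, 0.924 and 1.08 times in ITGA4+BMPR1B+ cells and 1.02, 0.820 and 1.18 times in ITGA4-BMPR1B+ cells. On both measures pig 2 was far higher in ITGA4+BMPR1B+ cells and pig 6 was lower, while the direction in pig 5 depended on the rows taken. Among BMPR1B- cells of pig 2 the 13 genes amounted to 1.59 times in the ITGA4+BMPR1B- library and 0.316 times in the ITGA4-BMPR1B- library, the lowest of the 12 libraries. Set against each library's own messenger RNA, the 37 rows were higher in ITGA4+BMPR1B+ cells in 3 of 3 pigs. They made up 89.4%, 46.0% and 54.0% of mitochondrial plus messenger RNA, against 49.7%, 36.9% and 52.7%. The direction in pig 6 thus depended on the denominator.

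**Figure D5:**
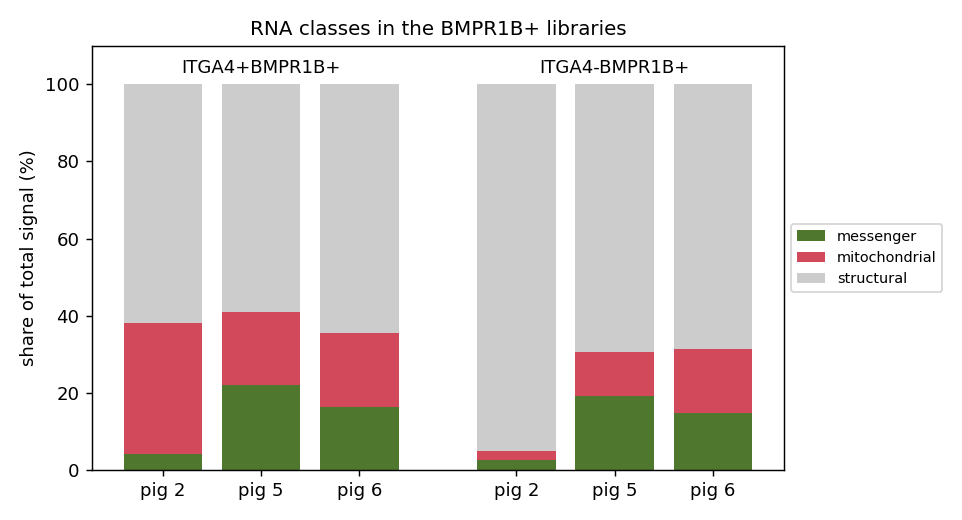
Share of the total signal (%) taken by messenger, mitochondrial and structural RNA in the 6 BMPR1B+ libraries, 1 stacked bar per pig and population, ITGA4+BMPR1B+ at the left. Mitochondrial RNA stands at 34.0% in the ITGA4+BMPR1B+ library of pig 2 and at 2.41% in the ITGA4-BMPR1B+ library of the same pig, where structural RNA takes 95.2%.

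Some of the genes with the smallest p belonged to none of these groups. CRH, the corticotropin-releasing hormone, was at 21.1, 8.83 and 5.45 in ITGA4+BMPR1B+ cells and 2.58, a listed 0 and 0.796 in ITGA4-BMPR1B+ cells. CRH was high enough to test only with the ITGA4+BMPR1B+ libraries counted. ZNF684, a zinc finger protein, was at 7.37, 8.01 and 6.85 in ITGA4+BMPR1B+ cells and 3.78, 2.79 and 3.66 in ITGA4-BMPR1B+ cells. Both were without overlap. On the lower side FTSJ3, a methyltransferase of ribosome assembly, was at 21.5, 14.7 and 16.2 in ITGA4+BMPR1B+ cells and 43.5, 28.6 and 29.9 in ITGA4-BMPR1B+ cells, and was the named gene with the smallest p (log2 difference -0.92, SE 0.14, unadjusted p = 0.000165, limma adjusted p = 0.307). CNR1, a cannabinoid receptor, was at 2.57, 2.15 and a listed 0 in ITGA4+BMPR1B+ cells and 16.9, 9.71 and 2.32 in ITGA4-BMPR1B+ cells. The zinc finger repressor ZBTB7B, the methyltransferase METTL4 and the amino acid transporter SLC1A4 were lower without overlap, with log2 differences of -0.998, -1.27 and -0.72. SLC1A4 had 2 rows in the table, and the value is that of 1 of them. The histone deacetylase HDAC5 was lower in 3 of 3 pigs with -0.70.

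Single histone genes differed between the populations, and whether their list stood apart from all genes depended on the measure. HIST2H2AA4 was at 243, 328 and 134 in ITGA4+BMPR1B+ cells, against 0.632, 81.3 and 4.19 in ITGA4-BMPR1B+ cells. HIST2H2AC was at 157, 421 and 247 in ITGA4+BMPR1B+ cells, against 482, 445 and 533 in ITGA4-BMPR1B+ cells. These H2A genes are near-identical, so that the split of reads between them is uncertain. The list as a whole had 3 members higher and 3 lower in 3 of 3 pigs among 23 tested, close to the 12.4% and 15.5% of all genes. At an unadjusted p under 0.05 in limma 3 were higher and 2 lower, against 3.37% and 3.97%. The list median was 0.24 on the log2 scale, against -0.03 for all genes, with -0.09, 0.65 and -0.01 in pigs 2, 5 and 6.

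Most markers of blood and vessel cells were low or listed at 0, but not all of them. The 14 endothelial genes summed to 141, 14.0 and 14.2 in ITGA4+BMPR1B+ cells and 7.44, 21.5 and 12.5 in ITGA4-BMPR1B+ cells. MYCT1 and SOX17 were at 49.6 and 6.79 in the ITGA4+BMPR1B+ library of pig 2 and listed at 0 in the other 5. Of the macrophage genes, CD163, C1QA, C1QB and TYROBP were listed at 0 in all 6 libraries, and CD14 was at 244, 86.9 and 243 in ITGA4+BMPR1B+ cells and 224, 128 and 212 in ITGA4-BMPR1B+ cells. Over the 17 genes of that list the sum was 278, 127 and 293 in ITGA4+BMPR1B+ cells and 259, 175 and 246 in ITGA4-BMPR1B+ cells, and CD14 made up most of it. Of the 15 lymphocyte genes, CD3D, CD3E and MS4A1 were listed at 0 in all 6, while CD79A, a subunit of the B cell receptor, was at 81.5, 59.0 and 49.3 in ITGA4+BMPR1B+ cells and 113, 38.2 and 20.5 in ITGA4-BMPR1B+ cells. CD79A was higher in pigs 5 and 6 and lower in pig 2 (log2 difference 0.46, SE 0.60).

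The 11 pericyte and smooth muscle genes summed to 137, 145 and 181 in ITGA4+BMPR1B+ cells and 137, 187 and 159 in ITGA4-BMPR1B+ cells. Of these genes, 4 were higher in 3 of 3 pigs and 0 lower. The counts over the 18633 messenger rows above 0 were 2053 higher and 2087 lower. RGS5, a regulator of G protein signalling found in pericytes, was at 4.26, 1.64 and 5.11 in ITGA4+BMPR1B+ cells and 0.599, 0.640 and 2.23 in ITGA4-BMPR1B+ cells (log2 difference 1.11, SE 0.43, unadjusted p = 0.0314, limma adjusted p = 0.635). RGS5 was high enough to test only with the ITGA4+BMPR1B+ libraries counted, so its p value is no support for the direction. The potassium channel gene KCNJ8 was at 58.1, 86.3 and 62.5 in ITGA4+BMPR1B+ cells and 55.8, 61.1 and 58.9 in ITGA4-BMPR1B+ cells. The list did not move as one. Of its 6 tested members, 4 had a positive log2 difference and 2 a negative one, of -0.61 and -0.53. Those 2 were lower in pigs 2 and 5 only. The part of all these markers in the differences above was not tested. Within pigs 5 and 6 the log2 difference was 2.47 and 1.26 for TOP2A, 3.89 and 3.34 for COL10A1 and -2.03 and -0.998 for MATN1. These genes were picked with results known, and their values do not test the part of any marker. In sorted bulk populations, more cells of a kind and more RNA in each such cell cannot be told apart.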

How the data were processed

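Sorted adult pig chondrocytes were profiled by RNA sequencing. The authors extracted total RNA with a Qiagen Micro kit, made libraries with the NuGen Ovation SoLo kit, aligned reads with STAR to an Ensembl pig reference and quantified them with Partek. The deposited values are a signal per Ensembl gene for 25322 genes in 15 libraries, and they did not resolve into whole reads. Read totals per library, which the study lists, were not used here. Normalization of these values, tool versions and strand use in counting: not given in the sources used here.

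Structural (1125) and mitochondrial (37) rows were set aside. The mitochondrial rows are the run of consecutive identifiers that holds the 13 named mitochondrial genes. The 24160 messenger rows were divided by each library's median ratio over 11303 genes and brought to a mean total of 1000000. Symbols came from the table for 13674 rows and from a reference list for 2384. Genes above 5 in at least 3 of the 12 chondrocyte libraries were tested in limma 3.58.1 (R 4.3.3), on log2(scaled value + 1) with a trended prior and the pig as a block, adjusted by Benjamini-Hochberg over all genes at 0.05. Fold changes of low genes are understated on this scale. The titles give the same pig for libraries of 1 number, and deviations of ITGA4+BMPR1B+ and ITGA4-BMPR1B+ libraries correlated at 0.351, 0.205 and 0.328 within pigs. The fit was tested on simulated data.

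Members and the 30 gene lists were chosen with earlier results of these data known. Named genes were a panel (ITGA4, BMPR1B, TOP2A, UBE2C, COL2A1, ACAN, COMP, SOX9, GLI1, RUNX2, STAT3 and PRG4), the 10 smallest p values per direction with a symbol and a mean of at least 5, since none passed the threshold, and up to 4 tested members of smallest p per list. RACGAP1, CDK1, VEGFA, DMP1, MYCT1, SOX17 and markers at 0 were named after their values were seen. A gene that the rule picked is not reported here. Alternatives were other scalings, pseudocounts (0.5 and 5), filters, no block, no trend, library weights and leaving out pigs or libraries.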

Additional observations from a re-analysis of the deposited data

Results flagged for a closer look

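ZNF684 had opposite directions in the 2 ITGA4 comparisons in every pig. It was at 7.37, 8.01 and 6.85 in ITGA4+BMPR1B+ cells and 3.78, 2.79 and 3.66 in ITGA4-BMPR1B+ cells. Among BMPR1B- chondrocytes it was at 4.65, 5.11 and 7.48 in ITGA4+BMPR1B- cells and 6.91, 6.32 and 8.47 in ITGA4-BMPR1B- cells. The difference between both log2 differences was 1.24 (SE 0.29), with an unadjusted p of 0.00223 and an adjusted p of 0.99996 in limma, so it did not pass the correction. Groups of 3 libraries were not searched for outlying libraries.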

How the results depend on the processing

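Over the other scalings, filters, fits and subsets of libraries the 62 tested genes named in the text kept their direction in 1232 of 1242 values. The 10 others all arose on the deposited scale, where the log2 difference was 0.0059 for ACAN, 0.13 for SOX9, 0.26 for COMP, 0.091 for TGFBR2, 0.26 for GLI1, 0.17 for STAT3, 0.17 for ITGA10, 0.0056 for NDUFA13, 0.033 for RPL39 and 0.19 for KLF4. On that scale the median of all genes was 0.27, against which these values are to be read. The count of called genes was 0 in limma in all settings but these: 1 without a filter, and 0 to 2 when a pig or a library was left out (1 without pig 2, 1 without its ITGA4+BMPR1B+ library, 2 without that of pig 6, MATN1 among them, and 1 without the ITGA4-BMPR1B+ library of pig 2). For the difference between the ITGA4 comparisons 1 gene was called with a pseudocount of 5, without a filter, without the trend, and without pig 2 (0 to 1 over the pigs left out). The cause was not tested. At an unadjusted p under 0.05 there were 678 genes, against 1995 on the deposited scale, 323 without the replicate block, 371 with the filter above 20, 1275 without a filter and 431 without the ITGA4-BMPR1B+ library of pig 5. For the difference between the ITGA4 comparisons these were 334 genes, against 154 without the replicate block, 149 with the filter above 20 and 704 without a filter. Without the block no gene was called in limma, the same 0 as with it. The mitosis median was 0.89, and 0.62 with a pseudocount of 5. The difference in the mitochondrial share was 13.9 points, between 5.11 and 19.6 points when a pig was left out, and 16.7 points when structural RNA was left out. The list medians were recomputed after seeing the data. The reads behind a single value could not be recovered, so no limit of detection is given for the genes listed at 0.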
